A study of Homo sapiens with 6 samples.

Results

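The SMN complex assembles the spliceosomal small nuclear ribonucleoproteins (snRNPs). In the cytoplasm it takes up Sm proteins and loads them as a ring onto the small nuclear RNAs. SMN is the central subunit, GEMIN2 holds the Sm proteins, GEMIN5 recognizes the small nuclear RNAs, GEMIN6 and GEMIN7 form a pair that resembles Sm proteins, GEMIN8 joins that pair to SMN, and STRAP (UNRIP) binds through GEMIN7. Loss of SMN1 causes spinal muscular atrophy, and SAM68 is known from other cells as a repressor of the exon of SMN2 that is called exon 7 in that field.

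The members were the genes SMN1, GEMIN2, GEMIN5, GEMIN6, GEMIN7, GEMIN8 and STRAP, with every alternative splicing (AS) event listed under these names that had a mean of at least 10 junction reads over the 6 libraries. A junction read crosses the border of 2 joined exons. The rule gave 28 events of the 66395 that reached this minimum. They lay in 6 of the 7 genes: 15 in GEMIN2, 4 in STRAP, 3 in SMN1 and 2 each in GEMIN6, GEMIN7 and GEMIN8. GEMIN5 was not analysed here, nor was SMN2 or the SMN1 exon known as exon 7. A further GEMIN2 event was below the minimum. Of the 28 events, 22 were skipped exons (SE), 4 were mutually exclusive exons (MXE) and 2 were alternative 5ʹ splice sites (A5SS).

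NCI-H1975 is an established human lung adenocarcinoma (LUAD) cell line. The control group received the empty PCDNA3.1 plasmid and the SAM68 group the PCDNA3.1-SAM68 plasmid, each at 2 µg per well with lipofectamine for 48 h, with 3 libraries per group from separate biological replicates of this 1 line. The deposited lists give the libraries of a group by position only, and the first list was read as the control group. The junction counts of all listed skipped exon events summed to 16951876 to 19737729 per library, where a read shared by several events is counted in each. KHDRBS1, which encodes SAM68, rose in the SAM68 group from 318.9 ± 8.93 to 1257 ± 23.1 rpm (SD, n = 3), a log2 fold change of 1.98 with an adjusted p of 1.15e-21 (limma). Here rpm are the junction reads of a gene's most read event per 1000000 such reads, and reads from the plasmid are not told apart from those of the cell's own gene. The keratin genes KRT8 (229.5 to 519.6 rpm) and KRT18 (471.0 to 530.1 rpm) were read in all libraries, as in epithelial cells, whereas EPCAM and CDH1 were not analysed here.

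The exons on which the results turn are shown as they stand in hg38, 5ʹ to 3ʹ on the strand of the gene, with the exon in capitals between the end of the intron before it and the start of the intron after it. Exons are numbered along the canonical GENCODE transcript. SMN1 exon 4 (chr5:70942358-70942558, plus strand, coding, 201 nt) encodes the core of the Tudor domain that binds Sm proteins, and it had the largest PSI difference among the members. SMN1 exon 6 (chr5:70944658-70944753, 96 nt, coding) carries a run of proline codons. SMN1 exon 2 (chr5:70938839-70938910, 72 nt, coding) had the most uneven read numbers. GEMIN2 exon 6 (chr14:39124992-39125036, plus strand, 45 nt, coding) takes part in several of the events of GEMIN2.
SMN1 exon 4: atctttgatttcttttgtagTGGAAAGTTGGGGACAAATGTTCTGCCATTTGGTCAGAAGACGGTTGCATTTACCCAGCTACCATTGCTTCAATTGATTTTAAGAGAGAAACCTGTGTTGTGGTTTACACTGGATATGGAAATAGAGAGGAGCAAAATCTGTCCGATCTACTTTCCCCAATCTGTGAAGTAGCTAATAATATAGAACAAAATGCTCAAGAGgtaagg
SMN1 exon 6: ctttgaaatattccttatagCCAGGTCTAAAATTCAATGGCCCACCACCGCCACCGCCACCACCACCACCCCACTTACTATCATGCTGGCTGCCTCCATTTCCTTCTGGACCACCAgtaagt
SMN1 exon 2: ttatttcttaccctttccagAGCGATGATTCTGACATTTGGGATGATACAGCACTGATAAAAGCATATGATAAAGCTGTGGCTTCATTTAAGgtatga
GEMIN2 exon 6: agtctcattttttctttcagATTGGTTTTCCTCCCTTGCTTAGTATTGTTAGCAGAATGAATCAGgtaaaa

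None of the 28 events was called as changed by SAM68. A call needed an adjusted p under 0.05 in the quasi-binomial test and a difference of at least 10 points in percent spliced in (PSI), the length-corrected share of junction reads that include the exon. Of all 66394 tested events, 0.0256% met both. At an unadjusted p under 0.05 stood 0 of the 28 member events, against 8.42% of all tested events, and in 0 of them did the PSI of the groups not overlap, against 6.1% of all. The smallest p of a member was 0.0527 (adjusted p = 0.565, quasi-binomial test). Mean PSI was higher with SAM68 in 14 events and lower in 14. The median absolute difference was 1.69 points in the members and 1.24 points over all tested events.

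Most member events had a mean PSI near either end of the scale in both groups. In 12 events mean PSI was above 95% in both groups, in 5 it was below 5% in both, and the other 11 lay between. These are counts of events and not of exons. GEMIN7 exon 2, for example, was above 95% in 1 event and at 72.7 and 63.0% in another. The difference was under 5 points in 25 of the 28. At 5 points or more it stood in 10.7% of the members and 17.9% of all tested events. It reached 10 points in 1 of the 28, SMN1 exon 4, while 7.16% of all tested events reached it. The curves of effect size show the members beside all events.

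**Figure D1:**
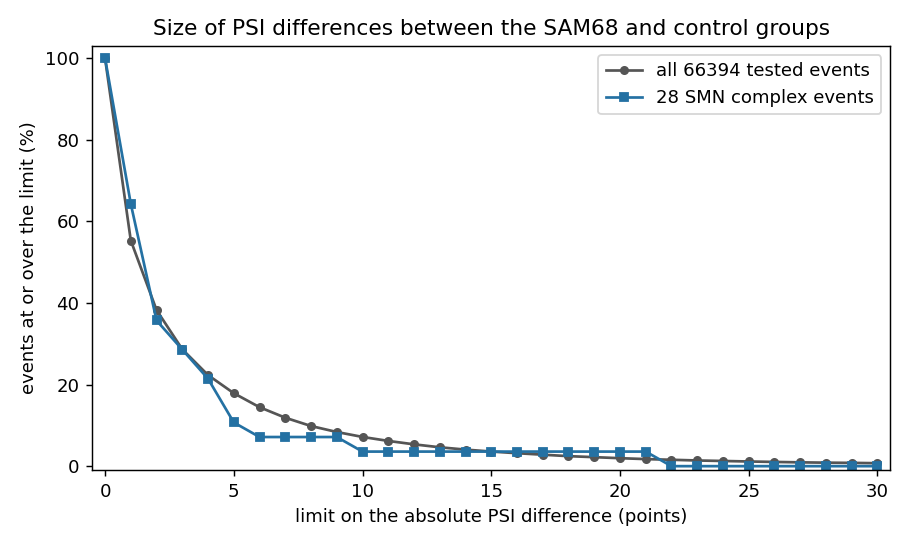
Share of events (%, vertical axis) whose absolute difference in mean PSI between the SAM68 and control groups is at or over a limit in points (horizontal axis), for the 28 SMN complex events and all 66394 tested events. At a limit of 10 points, 1 of the 28 members and 7.16% of all events remain.

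SMN1 was the member with the least even reads. Inclusion of exon 4 gave 456, 13 and 314 reads in the controls and 180, 375 and 8 with SAM68. Its skipping gave 2, 11 and 8 reads in the controls and 4, 1 and 0 with SAM68. One library of each group was thus at 13 or fewer inclusion reads, and the others were at 180 or more.

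The PSI of SMN1 exon 4 was 99.1, 37.1 and 95.2% in the controls and 95.7, 99.5 and 100% with SAM68. The second control library stood apart, and the groups overlapped. Mean PSI was 77.1% ± 34.7 in the control group and 98.4% ± 2.32 in the SAM68 group (SD, n = 3), a difference of 21.3 points. The 95% interval from the pooled SD of the libraries ran from -34.5 to 77.0 points. The adjusted p was 0.608 in the quasi-binomial test. That test works on raw reads, so the second control library with its few reads weighed little in it. The reads it compared were 783 inclusion and 21 skipping in the controls and 563 and 5 with SAM68. The exact two-sided permutation test of the PSI values gave p = 0.2, where 0.1 is the smallest that 3 against 3 libraries allow. Without the second control library the difference was 1.26 points.

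SMN1 exon 6 was read evenly. Its inclusion gave 193, 150 and 164 reads in the controls and 137, 137 and 93 with SAM68, with 1 to 9 skipping reads in each library. PSI was 97.4, 95.6 and 91.3% in the controls and 96.3, 95.2 and 98.2% with SAM68. The groups overlapped, with a difference of 1.81 points (95% interval -3.73 to 7.34) and an adjusted p of 0.665 in the quasi-binomial test. Thus the library with 13 inclusion reads at exon 4 held 150 at exon 6, and the one with 8 held 93.

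SMN1 exon 2, described because of its values, was also read unevenly. Its inclusion gave 10, 17 and 19 reads in the controls and 904, 2 and 6 with SAM68, and skipping was read once, in the first control library. Hence the first SAM68 library held nearly all reads of this event. PSI was 86.6% in the first control library and 100% in the other five. This event had the smallest unadjusted p of the members.

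The SMN1 reads met a limit of the gene itself. SMN2 is a near-identical copy, and in hg38 each of the SMN1 exons 1 to 7 has an identical copy in SMN2, while exons 8 and 9 differ from theirs by 1 base each. Exon 8 is the one known as exon 7. Reads of exons 2, 4 and 6 could therefore come from either gene, and the part of this in the uneven counts was not tested. The highest library held at least 10 times the reads of the lowest in 2 of the 28 member events, SMN1 exons 2 and 4, and in 1.02% of all tested events.

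**Figure D2:**
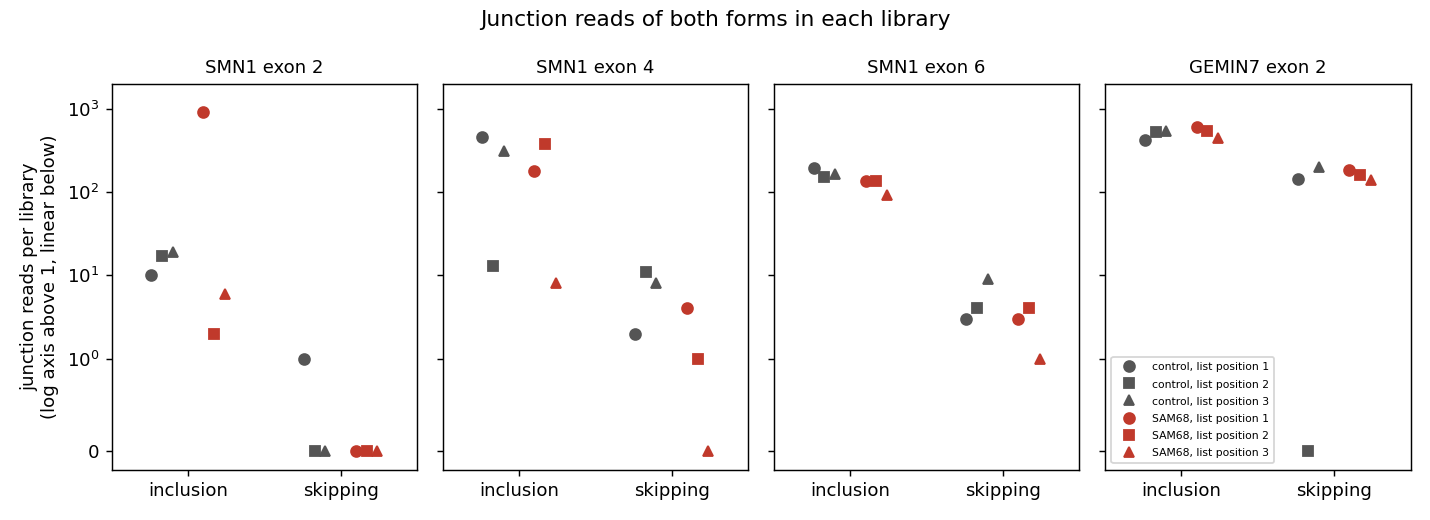
Junction reads per library (vertical axis, logarithmic above 1 and linear below) of the inclusion and skipping forms of SMN1 exons 2, 4 and 6 and GEMIN7 exon 2, 1 point per library, control in grey and SAM68 in red. SMN1 exons 2 and 4 spread over more than 10-fold between libraries while exon 6 stays between 93 and 193 inclusion reads, and 1 control library has 0 skipping reads of GEMIN7 exon 2.

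GEMIN7 exon 2 had the most skipping reads of the SE exons that belong to a canonical member transcript. It is an untranslated exon of 123 nt ahead of the start codon (chr19:45079907-45080029, plus strand). Inclusion gave 423, 519 and 538 reads in the controls and 604, 546 and 447 with SAM68. Skipping gave 144, 0 and 201 reads in the controls and 184, 160 and 140 with SAM68. The second control library stood apart with no skipping read, which allows a share of up to 0.578% of its 519 reads.

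The PSI of GEMIN7 exon 2 was 60.2, 100 and 58.0% in the controls and 62.9, 63.8 and 62.2% with SAM68. Mean PSI was 72.7% ± 23.6 in the control group and 63.0% ± 0.779 in the SAM68 group (SD, n = 3). The difference of -9.79 points had a 95% interval of -47.7 to 28.1 and an adjusted p of 0.565 in the quasi-binomial test. It was -5.96 points with the reads of both events of this exon summed and -5.76 points without the length correction. It turned to 3.84 points (adjusted p = 0.653, same test) without the second control library, when every SAM68 library was above both remaining control libraries. A form at 0 reads in one library and at 10 or more in another of its group occurred in 1 of the 28 member events, this one, and in 4.34% of all tested events.

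A further event of the same GEMIN7 exon uses another end of exon 1. There PSI was 98.7% in both groups, with 0 to 9 skipping reads against 277 to 424 inclusion reads per library. Both events count the reads that join exons 2 and 3, so the PSI of each does not give the share of transcripts with its own form of exon 1. The intron before GEMIN7 exon 2 ends in a pair of TTAA motifs, shown in capitals, and no TAAA or TTAA stands in the first 30 bases of the intron after it.
end of the intron before GEMIN7 exon 2: gacacgtcaacaccttggTTAATTAAttag
start of the intron after GEMIN7 exon 2: gtctgtgaaacccctgcccctgccattgac

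**Figure D3:**
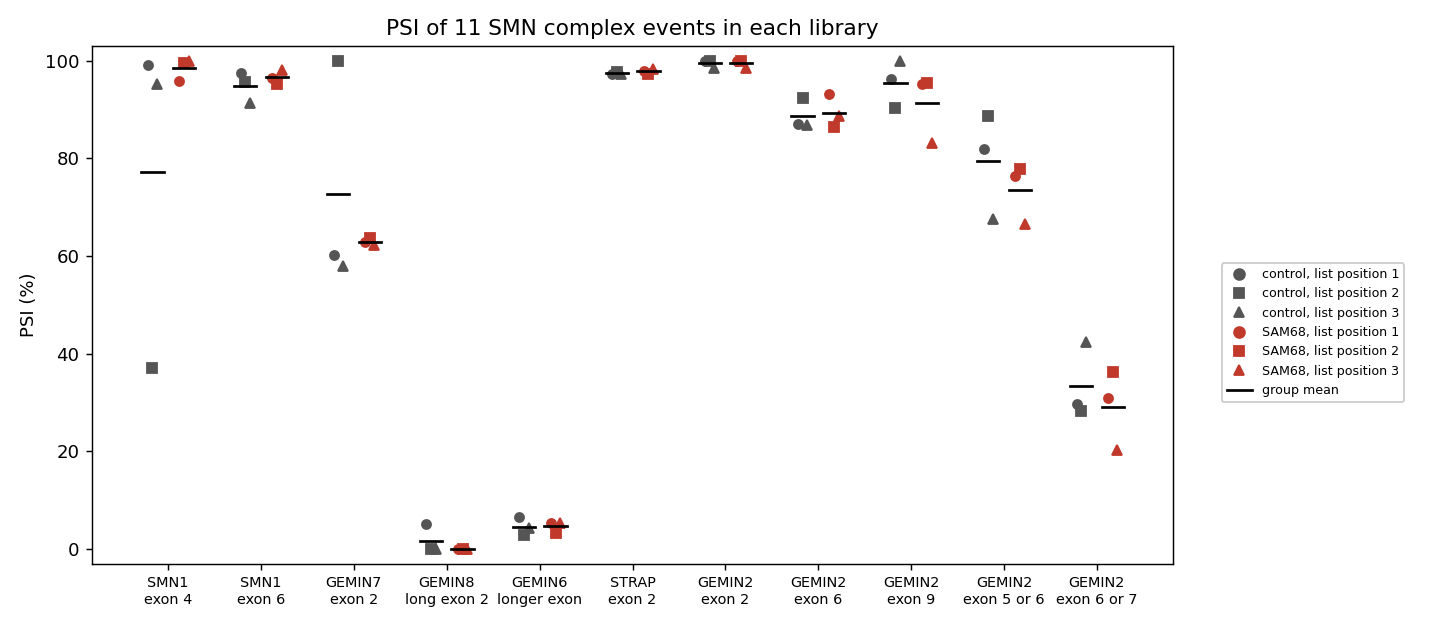
PSI (%, vertical axis) of the 11 events given in full, by gene and exon, 1 point per library with the group mean as a bar, control in grey and SAM68 in red. The groups overlap in each event, and the second control library stands apart at SMN1 exon 4 (37.1%) and GEMIN7 exon 2 (100%).

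GEMIN2 held 15 of the 28 events, with means of 15.8 to 127.5 reads per library. PSI was higher with SAM68 in 5 of the 15 and lower in 10, and none was called. The exons 2, 5 and 8 were included at a mean of 98.3% or more in both groups. The most read event, exon 2 (chr14:39114829-39114913, 85 nt, coding), had 117, 129 and 109 inclusion reads in the controls and 181, 116 and 111 with SAM68. Its skipping was read once in the third library of each group, and the difference was 0.0088 points (95% interval -1.92 to 1.94).

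GEMIN2 exon 6, whose sequence stands above, keeps the reading frame when it is left out, as its length is a multiple of 3. Between exons 5 and 7 its inclusion gave 72, 48 and 70 reads in the controls and 54, 34 and 52 with SAM68. Skipping gave 8, 3 and 8 reads in the controls and 3, 4 and 5 with SAM68. The resulting PSI was 87.1, 92.3 and 86.7% in the controls and 93.1, 86.4 and 88.6% with SAM68. The values of the groups overlapped, with a difference of 0.67 points (95% interval -6.73 to 8.07, adjusted p = 0.848 in the quasi-binomial test).

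GEMIN2 exon 9 (chr14:39133661-39133719, 59 nt, coding) does not keep the frame when left out. Its PSI was 96.3, 90.2 and 100% in the controls and 95.3, 95.5 and 83.1% with SAM68, from 57 to 80 inclusion and 0 to 8 skipping reads. The lowest value was the third SAM68 library, and the groups overlapped. The difference was -4.22 points (95% interval -18.0 to 9.60, adjusted p = 0.565 in the quasi-binomial test). A 225-nt exon after exon 9, outside the canonical transcript, was included in 0 to 2.44% per library.

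In the MXE events of GEMIN2, PSI is the share of the exon nearer the 5ʹ end, and a transcript that holds both exons gives reads to both forms through their flanks. For exon 5 or exon 6, PSI was 81.9, 88.7 and 67.5% in the controls and 76.5, 77.7 and 66.5% with SAM68. For exon 6 or exon 7, it was 29.6, 28.3 and 42.5% in the controls and 31.0, 36.3 and 20.3% with SAM68. The groups overlapped in both.

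The first MXE event differed by -5.80 points (95% interval -25.7 to 14.1, adjusted p = 0.850) and the second by -4.26 points (95% interval -22.3 to 13.8, adjusted p = 0.839), both in the quasi-binomial test. The second counts the same reads as 2 of the SE events, those of exons 6 and 7 between exons 5 and 8, so these are not separate measurements. The other 2 MXE events had mean PSI of 99.1 and 8.50% in the control group and 97.4 and 5.08% in the SAM68 group. The far 5ʹ splice site of exon 1 was used in a mean of 95.9% in the control group and 98.0% in the SAM68 group.

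**Figure D4:**
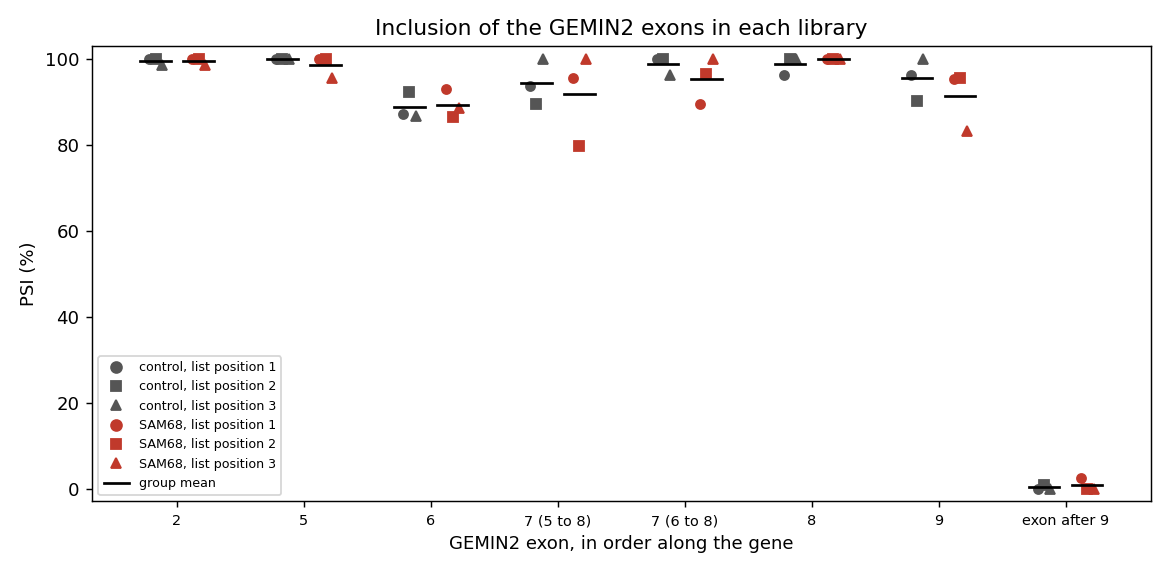
PSI (%, vertical axis) of GEMIN2 exons in order along the gene (horizontal axis), 1 point per library with the group mean as a bar, control in grey and SAM68 in red; exon 7 is given between exons 5 and 8 and between exons 6 and 8. Exons 2, 5 and 8 lie near 100%, exon 6 at a mean of 88.7% in the control and 89.4% in the SAM68 group, and the 225-nt exon near 0.

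The 2 events of GEMIN6 share their skipping reads and the start of an exon that lies between canonical exons 2 and 3. The longer form (chr2:38779258-38779441, plus strand, 184 nt) gave 31, 17 and 20 inclusion reads in the controls and 34, 18 and 22 with SAM68, beside 197 to 296 skipping reads. Its PSI was 6.67, 2.85 and 4.26% in the controls and 5.43, 3.31 and 5.29% with SAM68. These ranges overlapped, with a difference of 0.09 points (95% interval -3.55 to 3.72, adjusted p = 0.910 in the quasi-binomial test). The 68-nt form was included in a mean of 2.59% in the control group and 1.74% in the SAM68 group.

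GEMIN8 was the least read member. Its untranslated exon 2 has 2 alternative 5ʹ splice sites (minus strand). The long form of 170 nt (chrX:14026052-14026221) had 2, 0 and 0 reads in the controls and 0 throughout the SAM68 group. The short form of 82 nt (chrX:14026140-14026221), which is the canonical exon, had 22, 32 and 39 reads in the controls and 27, 56 and 49 with SAM68. The long form was thus seen in 1 library, and a count of 0 among 132 reads in the SAM68 group leaves room for a raw read share of up to 2.27%. The difference was -1.72 points (95% interval -6.50 to 3.06, adjusted p = 0.665 in the quasi-binomial test).

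The SE event of the 170-nt GEMIN8 exon, described because it is the other event of the gene, had 10 to 26 reads per library. Its PSI was 53.8, 17.6 and 46.2% in the controls and 33.3, 36.8 and 52.9% with SAM68. The groups overlapped, and the difference was 1.82 points with a 95% interval of -33.0 to 36.7. Its inclusion reads include those of the 3ʹ splice site, which the short and the long form share.

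STRAP was the most deeply read member. Exon 2 (chr12:15883541-15883676, plus strand, 136 nt, coding) gave 1891, 2137 and 2212 inclusion reads in the controls and 2194, 1913 and 1969 with SAM68. Its PSI was 97.3, 97.7 and 97.2% in the controls and 97.9, 97.3 and 98.2% with SAM68. The groups overlapped, and the difference of 0.39 points had a 95% interval of -0.51 to 1.29 and an adjusted p of 0.575 in the quasi-binomial test. Exons 7 and 9 were included at a mean of 99.9% or more in both groups. A 39-nt exon outside the canonical transcript was included in at most 0.331% of any library.

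The level of spliced RNA of the members was compared by rpm of each gene's most read event. None of the 6 measured genes was called, where a call needed an adjusted p under 0.05 and a log2 fold change of at least 1 in limma. Of all 10147 tested genes, 0.0493% met both, and 0.414% had an adjusted p under 0.05, which 0 of the 6 had. Log2 fold changes were on the scale of log2(rpm + 0.5). Less RNA per cell and fewer cells that make it cannot be told apart in such bulk samples.

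STRAP gave 330.8, 344.4 and 375.7 rpm in the controls and 350.2, 356.3 and 364.9 rpm with SAM68. Its log2 fold change was 0.03 ± 0.06 (SE), and the groups overlapped. GEMIN7 gave 97.8, 82.7 and 123.7 rpm in the controls and 124.5, 129.7 and 107.8 rpm with SAM68. The groups overlapped here too, and the log2 fold change of 0.26 ± 0.11 (SE) had an adjusted p of 0.299 (limma). These are the reads of exon 2, and the value was 0.13 (adjusted p = 0.745) without the second control library and 0.42 (adjusted p = 0.087, both limma) without the third.

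GEMIN2 gave 20.2, 20.5 and 18.4 rpm in the controls and 28.6, 21.3 and 20.6 rpm with SAM68. It was the 1 member of 6 whose groups did not overlap, which held for 16.8% of all tested genes. The lowest SAM68 library stood next to the highest control library, and the log2 fold change of 0.23 ± 0.17 (SE) had an adjusted p of 0.610 (limma).

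SMN1 gave 79.0, 3.82 and 53.9 rpm in the controls and 29.1, 69.1 and 1.47 rpm with SAM68. These are the uneven reads of exon 4. The log2 fold change by exon 4 was -0.74 ± 0.81 (SE), with an adjusted p of 0.765 (limma). It ran from -2.05 without the second control library to 0.77 without the third SAM68 library. GEMIN6 had a log2 fold change of 0.11 ± 0.12 and GEMIN8 one of 0.47 ± 0.32 (SE), with groups that overlapped. The GEMIN8 value was 0.30 with the reads of its SE event.

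**Figure D5:**
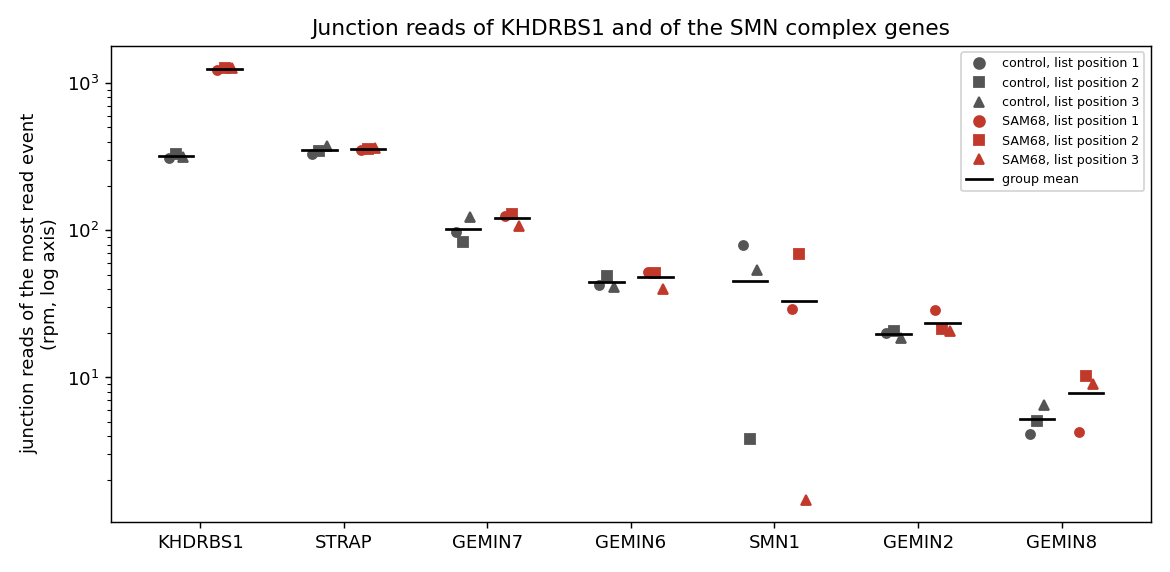
Junction reads of the most read event in rpm (vertical axis, logarithmic) for KHDRBS1 and the 6 measured SMN complex genes, 1 point per library with the group mean as a bar, control in grey and SAM68 in red. KHDRBS1 rises from a mean of 318.9 to 1257 rpm, STRAP stays between 330.8 and 375.7 rpm, and SMN1 spreads from 1.47 to 79.0 rpm.

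The other genes of snRNP assembly were 18 in all: the other subunits GEMIN4, DDX20 and SMN2, 7 Sm proteins, 3 proteins of the PRMT5 methylosome that modifies the Sm proteins, 4 that serve snRNP export, cap or import, and coilin of the Cajal body. Events were tested in 17 of them. Of their 81 events, 0 were called and 7 had an unadjusted p under 0.05, beside 8.42% of all tested events. No gene of the 17 was called by rpm, and none had an adjusted p under 0.05 (limma). The median absolute PSI difference of the 81 events was 0.37 points.

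Among those events with at least 20 reads, the smallest p belonged to SNRPG, which encodes the Sm protein G. An exon of this gene had 5, 3 and 2 inclusion reads in the controls and none with SAM68, beside 1448 to 1775 skipping reads per library. The groups did not overlap, which held for 6.1% of all tested events. Every control library was above every SAM68 library, at 0.169, 0.106 and 0.0651% against 0%. Pooled over the SAM68 group, a count of 0 among 4710 reads leaves room for a raw read share of up to 0.0637%. That share is not on the scale of these length-corrected values of single libraries. The limit for a single SAM68 library is higher, as it rests on fewer reads. The difference of -0.11 points had p = 0.00455 and an adjusted p of 0.391 (quasi-binomial test).

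SAM68 binds RNA at short motifs rich in A and U, of which TAAA and TTAA are the DNA letters. They were searched on the strand of the gene alone, within the 100 intron bases on either side of the 18 distinct skipped exons of the members. TAAA stood in 16 of the 18 and TTAA in 17 of the 18, against 59.6 and 60.8% of 38685 skipped exons in all. The motifs overlap in TTAAA, and some exons share introns or a start, so the counts are not independent.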

How the data were processed

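RNA of 3 control and 3 SAM68 libraries was sequenced as paired-end reads. The authors filtered and trimmed the reads, aligned them to GRCh38 with HISAT2 and listed AS events with rMATS. The submitters' processing notes name CASAVA 1.4, fastp 0.20.0 and HISAT2 2.1.0. The rMATS version is not given in the sources used here. The authors deposited, for each event and group, a list of 3 raw inclusion and 3 raw skipping junction counts, the effective length of each form and inclusion levels. The lists carry no replicate numbers. The first list was taken as control from the heading and the PKM inclusion levels of the study's splicing figure. The tables also hold the authors' p-value, FDR and difference of inclusion levels, which were not used. Of 78336 listed events, 78223 were read. In the A3SS table a spreadsheet had regrouped some lists, of which 162 were recovered and 113 with more than 1 possible division were left out.

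PSI was the inclusion count over its length divided by the sum of both forms over their lengths. Events that averaged at least 10 reads were fitted with a quasi-binomial model of the raw counts of both forms. Its dispersion was moderated per event type by squeezeVar of limma 3.58.1 (R 4.3.3) and not taken below 1. An F test and Benjamini-Hochberg adjustment within each type followed. Libraries with more reads weigh more in this test, and the lengths do not enter it. Its p is therefore not a test of the printed difference in mean PSI itself. Rpm were tested with limma (eBayes, trend) on log2(rpm + 0.5) over genes that averaged at least 10 reads. Exons were placed with GENCODE 44 on hg38. Limits from a count of 0 use 3 reads and cover counting error only, since reads carry no molecular identifiers.

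The members, the lists and the tests were chosen with earlier results of these data known. Given in full were the most read event of each gene, events with an unadjusted p under 0.05 and events averaging at least 20 reads with a mean PSI of 5 to 95% in a group (the 2 most read per gene and type). From the list of assembly genes, the event with the smallest p was named when none was called. The SMN1 exon 2 and GEMIN8 SE events, the keratins and the shares of uneven events were chosen after their values were seen. Alternatives were another test or spread, scaling, minimum or representative event, and leaving out each library.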

Additional observations from a re-analysis of the deposited data

How the results depend on the processing

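No paired analysis was possible because the lists carry no replicate numbers, so libraries are named by their position. The counts of called member events and genes were 0 under each alternative that was run. Leaving out 1 library at a time gave 0 to 0 for both. Over all events the number called was 17, against 3 with limma on the logit of PSI (0.5 read was added to each form before division by length), 2 with unmoderated spreads, 1354 with pooled counts, 3 without a minimum, 2 to 3 without 1 library, 40 with a limit of 5 points, 64 with no limit and 94 with 1 dispersion per type, an alternative chosen after seeing the data. Over all genes it was 5, against 2 at a minimum of 50 reads, 3 with median-of-ratios scaling and 1 to 14 without 1 library.

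Pooled counts took GEMIN7 exon 2 past the threshold (adjusted p = 0.026, likelihood ratio test), with a difference still under 10 points. Summing SE events that share an exon turned GEMIN2 exon 2 to -0.34 and exon 6 to -0.69 points and moved GEMIN7 exon 2 to -5.96. Dropping the length correction moved GEMIN7 exon 2 to -5.76, SMN1 exon 6 to 1.10, GEMIN8 to -2.78, the GEMIN6 exon to 0.18, STRAP exon 2 to 0.20 and GEMIN2 exon 2 to 0.0054 points. Leaving out 1 library gave differences of -17.2 to 3.84 points for GEMIN7 exon 2, -0.78 to 1.12 for the GEMIN6 exon, -0.49 to 0.50 for GEMIN2 exon 2, -1.19 to 2.46 for exon 6, -11.7 to -1.12 for exon 5 or 6, -7.79 to 0.26 for exon 6 or 7, -6.86 to -0.14 for exon 9, 0.086 to 3.11 for SMN1 exon 6, 0.19 to 0.67 for STRAP exon 2 and -2.58 to 0 for GEMIN8. It gave log2 fold changes of -2.05 to 0.77 for SMN1, -0.011 to 0.081 for STRAP, 0.13 to 0.42 for GEMIN7, 0.086 to 0.32 for GEMIN2, 0.046 to 0.23 for GEMIN6 and 0.25 to 0.83 for GEMIN8. The GEMIN8 level was 0.30 with its most read SE event, and the STRAP level 0.061 with median-of-ratios scaling. The SMN1 level turned upward without the first control library (0.06) and without the third SAM68 library. SMN1 exon 4 ran from 1.26 to 32.3 points. The causes were not tested. The intervals rest on 3 libraries per group.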
